A study of Mus musculus with 6 samples.

Results

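Homeostatic microglia genes are the genes that mark surveying, uninjured microglia, and 9 of them were followed here among 32285 genes listed: P2ry12, P2ry13, Tmem119, Sall1, Cx3cr1, Siglech, Gpr34, Fcrls and Olfml3. They are a list of names with no threshold on a value, and all 9 were measured. The list was chosen with earlier results of these data known. Their unique molecular identifiers (UMIs, each standing for 1 captured RNA molecule) were summed over all myeloid nuclei of a library and divided by all non-mitochondrial UMIs of those nuclei, times 1000000, which gives the CPM of a gene. There were 24116 myeloid nuclei among 61917 nuclei that passed filters. The question was whether the genes were low under ADWA11 because fewer nuclei carried the programme, because the nuclei that carried it held less of it, or both.

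Nuclei came from cortical lesions of adult mice after photothrombotic (PT) injury, a focal ischaemia made with light and a dye. Every mouse in the series was injured and none was an uninjured control. Ctrl mice were WT with no treatment given in the labels. ADWA11 mice were WT and received ADWA11, an antibody that blocks integrin αvβ8, from the day of injury and then weekly. Tgfbr2-cKO mice were Col1a2(creER); Tgfbr2(flox), in which tamoxifen removes the type II TGFβ receptor from cells that use the Col1a2 promoter, chiefly fibroblasts. The labels give no treatment for these mice. Each condition was taken at 7 and at 21 days post injury (dpi). Each of the 6 libraries pooled 1 male and 1 female mouse, so each condition and time had 1 library, and no test between conditions was made. Intervals below, except those given with a median over the genes, are exact 95% intervals. They cover counting error only, not the spread between mice or dissections.

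Microglia are the resident macrophages of the brain parenchyma. They depend on TGFβ, which integrin αvβ8 on neighbouring cells releases from its latent form, to keep a set of genes that other macrophages express little or not at all. P2ry12, P2ry13, Gpr34 and Cx3cr1 are receptors through which microglia sense nucleotides, lipids and the chemokine fractalkine, Sall1 is a transcription factor that maintains microglial identity, Tmem119, Siglech and Fcrls are surface proteins, and Olfml3 is secreted. In the injured brain this set is known to decline as microglia react, and infiltrating monocyte-derived macrophages mostly lack it.

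In the GRCm38 (mm10) annotation, P2ry12 lies on chromosome 3 from 59216272 to 59262871 on the minus strand. P2ry13 lies beside it, from 59207892 to 59210882 on the same strand, and both sit inside Med12l, a subunit gene of the Mediator complex on the opposite strand. Fcrls (chromosome 3, 87250758 to 87263738) and Olfml3 (chromosome 3, 103722222 to 103738001) are on the same chromosome, both on the minus strand. Tmem119 lies on chromosome 5 (113793729 to 113800516), Siglech on 7 (55768178 to 55778925), Sall1 on 8 (89027235 to 89044162), Cx3cr1 on 9 (119901616 to 120069879) and Gpr34 on X (13632089 to 13640858). Gpr34 is also nested in a gene of the opposite strand, Cask, a scaffold kinase. The span annotated for Cx3cr1 holds further genes, of which Wdr48 had 48.3 CPM and Gorasp1 5.92 CPM in myeloid nuclei of Ctrl at 7 dpi and the other 7 at most 3.50 CPM in any library.

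Promoter sequence from RefSeq (GRCm38.p6, 250 bases before to 50 after a start site) was matched for 7 of the 9 genes, all but Tmem119 and Gpr34. They were searched on both strands for GAGGAA, the core bound by PU.1, the master factor of macrophages, for CAGACA, a form of the SMAD box through which TGFβ acts, and for the MEF2 motif. The 7 genes have 9 promoters. PU.1 letters occurred in 3 of the 9 promoters, each of another gene, and in 28.3% of all 32851 promoters. SMAD letters occurred in 2 of the 9 and in 21.0% of all promoters, and the MEF2 motif occurred in none of the 9 and in 0.557% of all. The matches do not overlap one another. The 3 promoters with a match are shown, 5′ to 3′ on the strand of the gene with the matches in capitals, since PU.1 and SMAD are the factors that link this set to macrophage identity and to TGFβ. P2ry13 (chr3:59210833-59211132, minus strand) has the PU.1 letters, and Siglech (chr7:55767934-55768233, plus strand) and Fcrls (chr3:87263475-87263774, minus strand) have both. In Siglech both matches are on the opposite strand and read TGTCTG and TTCCTC. A match is a description of letters, and binding was not measured.
P2ry13: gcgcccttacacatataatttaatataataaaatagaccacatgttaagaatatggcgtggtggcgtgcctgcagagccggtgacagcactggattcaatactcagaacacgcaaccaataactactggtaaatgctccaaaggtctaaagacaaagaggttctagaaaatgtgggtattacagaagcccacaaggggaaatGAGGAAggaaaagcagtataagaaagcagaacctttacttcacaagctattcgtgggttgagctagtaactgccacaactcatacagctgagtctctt
Siglech: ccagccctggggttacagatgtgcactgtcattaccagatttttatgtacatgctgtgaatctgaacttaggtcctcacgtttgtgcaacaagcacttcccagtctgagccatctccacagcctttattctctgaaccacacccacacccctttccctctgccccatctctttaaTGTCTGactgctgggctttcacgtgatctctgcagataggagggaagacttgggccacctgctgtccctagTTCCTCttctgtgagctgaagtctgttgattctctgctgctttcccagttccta
Fcrls: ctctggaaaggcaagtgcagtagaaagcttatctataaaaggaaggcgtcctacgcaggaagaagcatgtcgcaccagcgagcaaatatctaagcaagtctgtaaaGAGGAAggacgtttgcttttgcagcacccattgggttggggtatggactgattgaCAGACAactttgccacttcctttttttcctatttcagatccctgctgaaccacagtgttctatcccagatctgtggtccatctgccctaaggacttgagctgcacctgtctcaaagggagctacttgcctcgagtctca

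The 6 libraries held 7205 to 14246 barcodes and 64798965 to 140310354 UMIs. Myeloid nuclei numbered 2263 to 6149 a library and held 8862213 to 44694167 UMIs outside mitochondrial genes, of which 5342 to 28516 belonged to the 9 genes. All 16 myeloid markers were higher in the myeloid class than in other nuclei in every library, by at least 2.32-fold. The same markers had named the class, so this is no separate check. Pairs of libraries shared 21 to 61 barcodes. The dissections differed in what else they held: neurons made up 5887 of 10594 nuclei in Tgfbr2-cKO at 7 dpi, 733 of 6583 in Tgfbr2-cKO at 21 dpi, and 11 to 148 in the other 4 libraries. Tgfbr2 in fibroblast nuclei was 238 CPM in Tgfbr2-cKO against 328 CPM in Ctrl at 7 dpi, and 190 against 229 CPM at 21 dpi. ADWA11 fibroblasts, which carry the intact gene, were at 250 and 197 CPM, so the level in Tgfbr2-cKO did not stand apart from a library without the deletion. Where the 3′ tags lie against the deleted exons is not given in the sources used here, so this is a weak check of the genotype. In myeloid nuclei Tgfbr2 was between 360 and 474 CPM in all 6 libraries.

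All 9 genes were lower in myeloid nuclei under ADWA11 than in Ctrl at both times, each beyond counting error, as were 32.5% of genes tested at 7 dpi and 37.2% at 21 dpi. At 7 dpi 6 of 9 were at least 2-fold lower, beside 3.64% of the 10997 genes tested, and at 21 dpi 9 of 9 were, beside 7.59%. The median log2 ratio of the 9 genes was -1.80 at 7 dpi and -2.40 at 21 dpi, where the median over all genes tested was 0.02 and -0.07. 

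**Figure D1:**
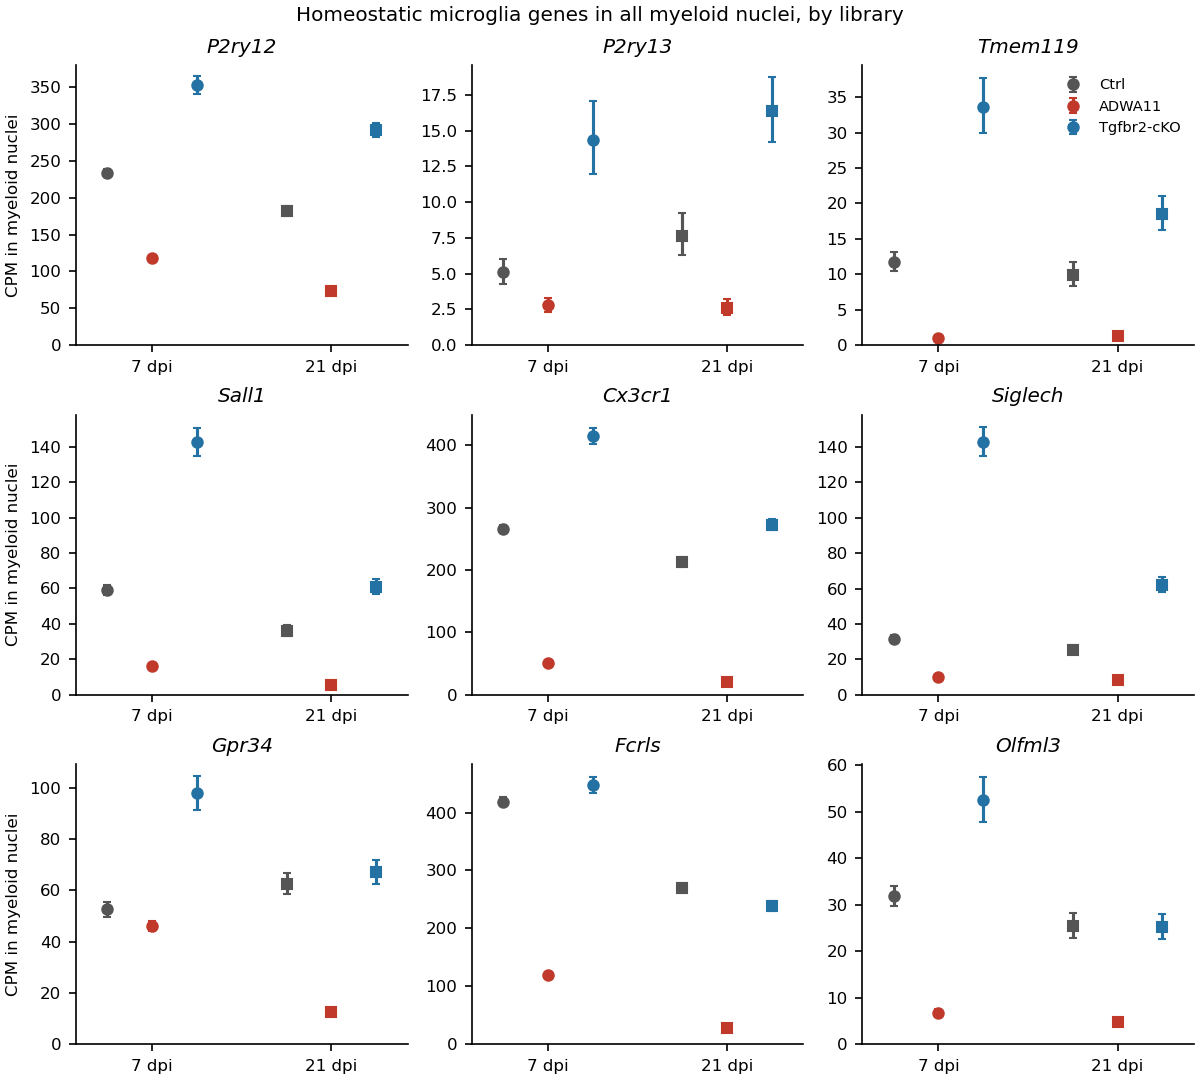
Level of each gene in all myeloid nuclei (CPM, linear axis from 0) in the 6 libraries, with circles for 7 dpi and squares for 21 dpi. Bars are exact 95% Poisson intervals and cover counting error only. In each panel and at each time the ADWA11 point lies lowest, and Gpr34 at 7 dpi, at 46.1 against 52.5 CPM, lies closest to Ctrl as a ratio.

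Among the receptors, Cx3cr1, which binds neuronal fractalkine, was at 266 CPM in Ctrl and 50.3 CPM in ADWA11 at 7 dpi, and at 213 and 20.9 CPM at 21 dpi. The Tgfbr2-cKO libraries were at 415 CPM at 7 dpi and 272 CPM at 21 dpi. ADWA11 was thus the low library at each time and Tgfbr2-cKO the high one, with log2 ratios of ADWA11 to Ctrl of -2.40 (-2.47 to -2.33) at 7 dpi and -3.35 (-3.46 to -3.23) at 21 dpi. P2ry12, the ADP receptor that steers microglial processes, was at 233, 119 and 353 CPM at 7 dpi in the same order of conditions and at 182, 73.7 and 292 CPM at 21 dpi. Its log2 ratio of ADWA11 to Ctrl was -0.98 (-1.03 to -0.92) and then -1.30 (-1.38 to -1.22), the smallest of the 9 at 21 dpi. Med12l, whose span covers P2ry12 and P2ry13 on the other strand, stood at 41.8 CPM in Ctrl and 34.8 CPM in ADWA11 at 7 dpi and at 59.1 and 59.4 CPM at 21 dpi. In Tgfbr2-cKO it was above Ctrl, as P2ry12 was, at 98.2 CPM at 7 dpi and 79.7 CPM at 21 dpi. Whether strand was used in counting is not given, and the part of Med12l in these levels was not tested.

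P2ry13, another ADP receptor, was sparse. It had 5.10, 2.77 and 14.3 CPM at 7 dpi and 7.64, 2.61 and 16.4 CPM at 21 dpi in Ctrl, ADWA11 and Tgfbr2-cKO. The order of the 3 conditions was that of P2ry12, and the log2 ratios of ADWA11 to Ctrl were -0.88 (-1.24 to -0.51) and -1.55 (-1.97 to -1.13). Gpr34, a lysophosphatidylserine receptor, was at 52.5, 46.1 and 97.7 CPM at 7 dpi and at 62.5, 12.4 and 67.0 CPM at 21 dpi. It was the one gene with little difference at 7 dpi, a log2 ratio of -0.19 (-0.29 to -0.09), and at 21 dpi it was -2.33 (-2.50 to -2.16). Within ADWA11 it stood 3.71-fold lower at 21 than at 7 dpi. Cask, whose span covers Gpr34 on the other strand, was at 228, 298 and 226 CPM at 7 dpi in Ctrl, ADWA11 and Tgfbr2-cKO. At 21 dpi Cask was at 265, 273 and 228 CPM, and its part in the Gpr34 levels was not tested.

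Sall1, the transcription factor of the set, was at 59.1, 16.5 and 143 CPM at 7 dpi and at 36.0, 5.24 and 60.8 CPM at 21 dpi. ADWA11 was low at both times, with log2 ratios of -1.84 (-1.97 to -1.71) and -2.78 (-3.03 to -2.53). Tmem119, a microglial surface protein, was at 11.7, 1.05 and 33.6 CPM at 7 dpi and at 9.93, 1.26 and 18.5 CPM at 21 dpi. At 7 dpi only 47 UMIs of Tmem119 were counted in ADWA11 against 301 in Ctrl, a log2 ratio of -3.48 (-3.95 to -3.03), which no other of the 9 genes reached at that time. At 21 dpi it was -2.98 (-3.51 to -2.48).

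Siglech, a sialic acid-binding lectin, was at 31.6, 9.96 and 143 CPM at 7 dpi and at 25.3, 8.17 and 62.1 CPM at 21 dpi. The log2 ratios of ADWA11 to Ctrl were -1.67 (-1.836 to -1.498) and -1.63 (-1.86 to -1.40). A few nuclei carried much of this gene at 21 dpi: 16 nuclei of unnamed sub-cluster 13 held 205 of the 279 UMIs in ADWA11, and 12 nuclei held 123 of 364 in Ctrl. Siglech is also known as a marker of plasmacytoid dendritic cells, and this sub-cluster, led by Mctp2, Grm8 and Ncald, had 4 monocyte and 4 dendritic markers raised. Without it, a choice made after seeing the data, Siglech was at 30.8 CPM in Ctrl and 9.18 CPM in ADWA11 at 7 dpi and at 16.8 and 2.17 CPM at 21 dpi, with log2 ratios of -1.75 (-1.92 to -1.57) and -2.95 (-3.35 to -2.57). Of the other 8 genes it held at most 1.19% of the UMIs in any library. Fcrls, an Fc receptor-like protein, was at 419, 120 and 447 CPM at 7 dpi and at 269, 27.3 and 239 CPM at 21 dpi. ADWA11 alone stood apart, with log2 ratios to Ctrl of -1.80 (-1.85 to -1.75) and -3.30 (-3.41 to -3.20). Olfml3, the secreted member, was at 31.9, 6.71 and 52.6 CPM at 7 dpi and at 25.4, 4.80 and 25.2 CPM at 21 dpi, with log2 ratios of -2.25 (-2.44 to -2.05) and -2.40 (-2.68 to -2.13).

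From 7 to 21 dpi the 9 genes took different courses. Under ADWA11 Fcrls was 4.41-fold, Gpr34 3.71-fold, Sall1 3.14-fold and Cx3cr1 2.40-fold lower at the later time. Tmem119 and P2ry13 under ADWA11 did not differ between the times beyond counting error, with log2 ratios of 0.26 (-0.37 to 0.89) and -0.09 (-0.50 to 0.31). In Ctrl Sall1 was 1.64-fold and Fcrls 1.56-fold lower at 21 dpi, while P2ry13, at 5.10 and 7.64 CPM, was higher, as was Gpr34, by 1.19-fold.

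Counting genes per nucleus gave the same order of libraries. Each myeloid nucleus was thinned to 2000 UMIs so that depth was equal, which left out 190 to 436 shallower nuclei a library. At 7 dpi 18.4% (17.2 to 19.7) of Ctrl myeloid nuclei held 3 or more of the 9 genes, 2.03% (1.68 to 2.43) of ADWA11 nuclei and 37.0% (34.8 to 39.3) of Tgfbr2-cKO nuclei. At 21 dpi the shares were 13.01% (11.8 to 14.3), 0.716% (0.517 to 0.967) and 21.2% (19.4 to 23.0). The share of nuclei with none of the genes was the mirror of this: 26.1%, 55.7% and 17.9% at 7 dpi and 38.7%, 79.0% and 33.2% at 21 dpi. A single gene was found in 31.5%, 31.8% and 22.0% of nuclei at the earlier time and in 28.9%, 17.3% and 28.8% at the later. The shares with 2 genes were 23.9%, 10.5% and 23.1%, then 19.4%, 2.98% and 16.8%.

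**Figure D2:**
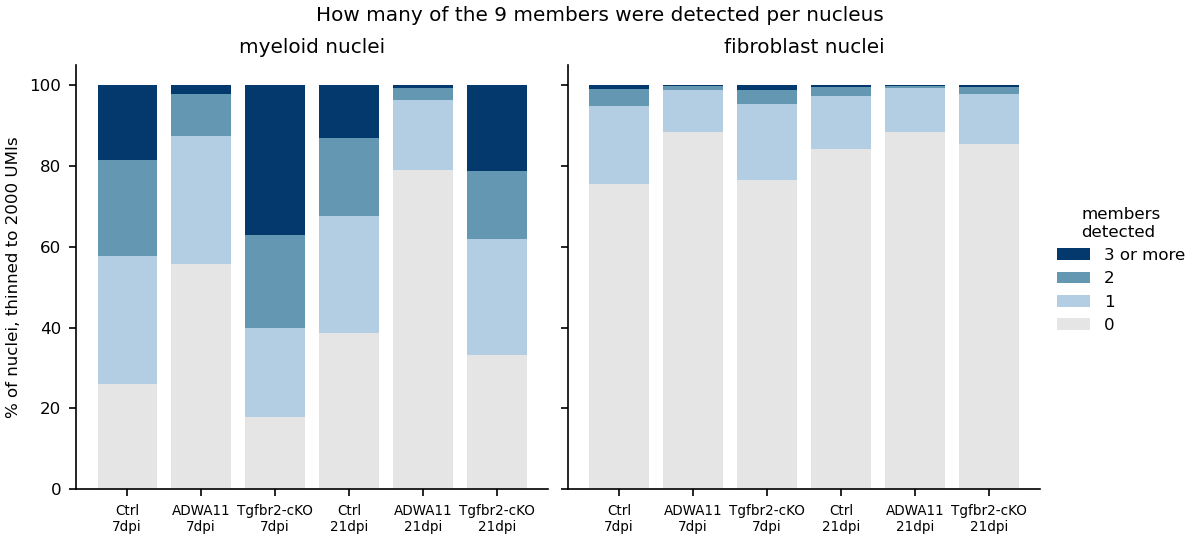
Percent of myeloid nuclei (left) and of fibroblast nuclei (right) in which 0, 1, 2 or 3 or more of the 9 genes had a UMI after thinning to 2000 UMIs, by library. The darkest band, 3 or more genes, covers 0.716% of myeloid nuclei in ADWA11 at 21 dpi and 37.0% in Tgfbr2-cKO at 7 dpi, and at most 1.07% of fibroblast nuclei in any library.

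Without thinning the shares of myeloid nuclei with 3 or more genes were 42.6%, 17.5% and 54.0% at 7 dpi and 26.5%, 2.62% and 41.1% at 21 dpi. Free RNA in the droplets gives some UMIs to every nucleus, and fibroblasts, which should lack most of the programme, were read for comparison. They are no measure of free RNA alone, since Olfml3 and Tmem119 were at 28.9 and 13.8 CPM in Ctrl fibroblasts at 7 dpi, beside 31.9 and 11.7 CPM in myeloid nuclei. After thinning, 0.981%, 0.0688% and 1.07% of fibroblast nuclei at 7 dpi and 0.484%, 0.0280% and 0.410% at 21 dpi held 3 or more of the genes. The myeloid shares lay above these in all 6 libraries, and the fibroblast share was itself lowest in ADWA11 at each time. Median depth before thinning was higher in fibroblasts than in myeloid nuclei in all 6 libraries, at 4668.5 to 9352 against 3338.5 to 6664 UMIs. Among T cell nuclei, at median depths of 2384 to 3378 UMIs, the share with 3 or more genes after thinning was between 0 and 1.56%.

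Nuclei that held several of the genes had lower levels of most of them under ADWA11, but they were not the same kind of nuclei as in Ctrl. For each gene, nuclei were picked by having at least 2 of the other 8 genes, so that the gene itself did not choose them, and its level in those nuclei was read. The median log2 ratio of ADWA11 to Ctrl over the 9 genes was -1.60 at 7 dpi and -1.24 at 21 dpi, against -1.80 and -2.40 in all myeloid nuclei. With nuclei picked by at least 3 of the other 8 genes, the median at 21 dpi was -1.71 and its interval, -4.10 to 0.077, included 0. The nuclei picked for Cx3cr1 were microglia-like, by the sub-clusters given further on, in 767 of 1213 cases in Ctrl and 9 of 547 in ADWA11 at 7 dpi, where 355 were of unnamed sub-cluster 2. At 21 dpi they were microglia-like in 355 of 610 cases in Ctrl and in 0 of 159 in ADWA11, where 111 were border macrophage-like. In ADWA11 at 21 dpi, nuclei with 3 or more of the 9 genes had Mrc1 at 3502 CPM and Cd163 at 109 CPM, against 669 and 4.19 CPM in nuclei with none. In Ctrl at 21 dpi the direction was the same, with Mrc1 at 443 and 221 CPM and Cd163 at 21.3 and 1.96 CPM. These classes were not thinned, unlike the picked nuclei, and held 161 and 3937 nuclei in ADWA11. By their sub-clusters the picked nuclei were unlike, so the log2 ratios above set unlike nuclei side by side. They do not read the level in microglia that remained. The genes chose nuclei for one another, so the 9 values are not independent.

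At 7 dpi Cx3cr1 was at 423 CPM in 1213 such nuclei of Ctrl and at 70.4 CPM in 547 of ADWA11, a log2 ratio of -2.59 (-2.94 to -2.25). Sall1 was at 106 and 18.9 CPM, P2ry12 at 358 and 163 CPM and Fcrls at 630 and 208 CPM. Gpr34 was at 84.9 and 74.5 CPM, a log2 ratio of -0.19 whose interval, -0.57 to 0.18, includes 0. Of the other 8 genes 7 had intervals below 0, and the exception, P2ry13, was at -1.42 (-3.41 to 0.11). The share of all genes lower by this rule in the picked nuclei is not given here. In all myeloid nuclei it was 32.5%.

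At 21 dpi 103 to 214 nuclei of ADWA11 qualified, depending on the gene, so the intervals were wide. Cx3cr1 was at 419 CPM in Ctrl and 91.2 CPM in ADWA11, a log2 ratio of -2.199 (-2.79 to -1.66). Fcrls was at 503 and 213 CPM, Gpr34 at 113 and 50.8 CPM and Sall1 at 62.5 and 9.62 CPM, each below Ctrl beyond counting error, as were Tmem119 and Olfml3. The share of all genes lower by this rule in the picked nuclei is not given here. In all myeloid nuclei it was 37.2%. P2ry12, at 367 and 286 CPM, did not differ beyond counting error, with a log2 ratio of -0.36 (-0.77 to 0.04). Siglech, at 43.0 and 46.3 CPM, did not either, at 0.11 (-0.70 to 0.85), nor did P2ry13, at -0.57 (-2.29 to 0.80).

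**Figure D3:**
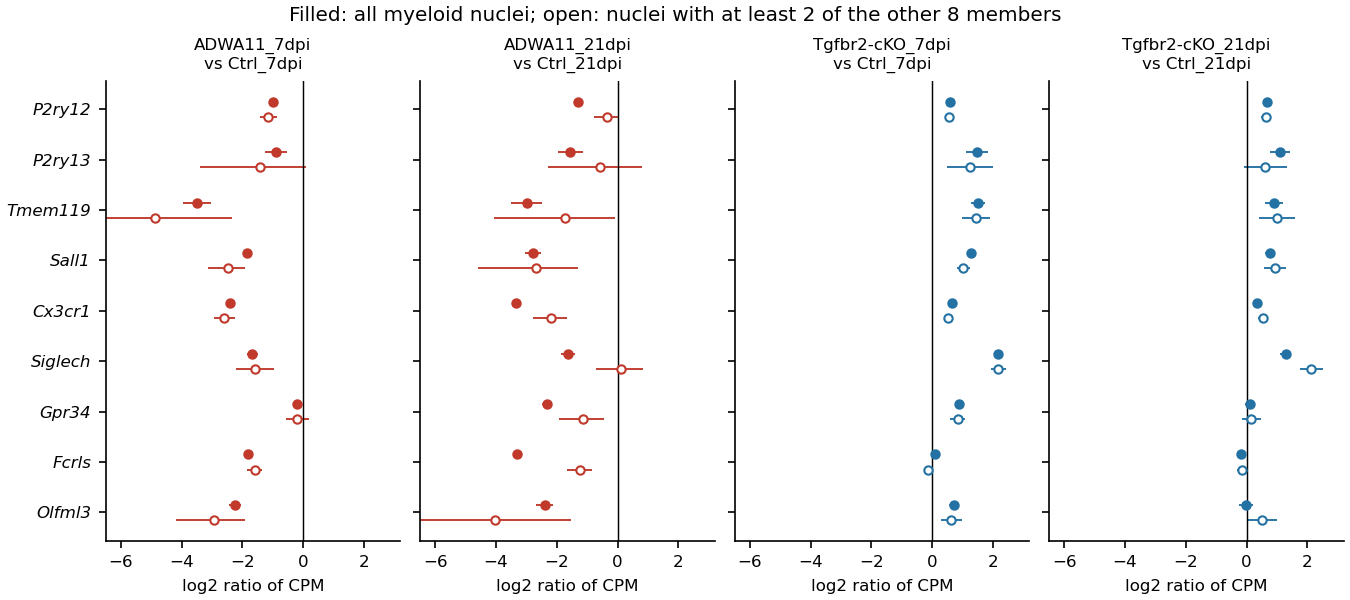
Log2 ratio of each gene to Ctrl of the same time, in all myeloid nuclei (filled) and in nuclei that held at least 2 of the other 8 genes (open). Bars are exact 95% intervals for counting error; those of Tmem119 at 7 dpi and Olfml3 at 21 dpi run past the left edge. Under ADWA11 the open points of Sall1, Cx3cr1 and Olfml3 stay below -2 at both times, and in Tgfbr2-cKO only Siglech passes 2.

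Myeloid nuclei were also clustered without the 9 genes, and sub-clusters were named from other markers. Sub-cluster 1 was microglia-like, with 7 microglia markers raised and 4176 nuclei. It took 1642 of 4295 myeloid nuclei in Ctrl at 7 dpi, or 38.2% (36.8 to 39.7), and 55 of 5967 in ADWA11, or 0.922% (0.695 to 1.20). At 21 dpi it took 1119 of 3142 (35.6%) in Ctrl, 23 of 6149 (0.374%) in ADWA11 and 1291 of 2263 (57.0%) in Tgfbr2-cKO. As a share of all nuclei it was 19.8% in Ctrl and 0.502% in ADWA11 at 7 dpi, and 8.55%, 0.185% and 19.6% at 21 dpi. In Tgfbr2-cKO at 7 dpi it held 46 of 2300 nuclei, but 1642 others (71.4%) formed sub-cluster 4, in which 10 microglia markers were raised and neuron genes led, so it was left unnamed. Neurons were also a smaller share of all nuclei in ADWA11, at 1.56% in Ctrl and 0.256% in ADWA11 at 7 dpi and at 1.13% and 0.0886% at 21 dpi. Astrocytes, at 1.78% and 2.11%, and oligodendrocytes, at 0.591% and 0.548%, were not lower beyond counting error at 7 dpi. At 21 dpi both were, with astrocytes at 7.31% and 3.21% and oligodendrocytes at 1.12% and 0.177%. Oligodendrocyte precursors were higher under ADWA11 at 7 dpi, at 6.26% (5.75 to 6.80) in Ctrl and 9.39% (8.85 to 9.95) in ADWA11. At 21 dpi they were lower, at 1.52% and 0.306%. Within myeloid nuclei the 8 neuron markers summed to 99.5 CPM in Ctrl and 49.3 CPM in ADWA11 at 7 dpi, and to 43.6 and 10.0 CPM at 21 dpi, with 1 of the 8 above its Ctrl level at each time and 0 of them without a UMI. Markers of other classes were lower there too: the 8 fibroblast markers summed to 593 and 317 CPM and then 938 and 497 CPM, the 6 astrocyte markers to 95.7 and 47.7 CPM and then 143 and 52.0 CPM, and the 6 oligodendrocyte markers to 117 and 80.1 CPM and then 117 and 71.9 CPM. The 10 T cell markers summed to 12.4 and 11.5 CPM and then to 19.9 and 34.7 CPM. The part of these other cells and their RNA in the shares and levels was not tested.

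The few ADWA11 nuclei in sub-cluster 1 held less of the genes than the Ctrl nuclei in it. The name of this sub-cluster came from markers raised over all its 4176 nuclei, and whether its ADWA11 nuclei carry them was not tested. At 7 dpi Cx3cr1 was at 419 CPM in Ctrl and 118 CPM in ADWA11 within sub-cluster 1, P2ry12 at 337 and 118 CPM, Sall1 at 128 and 47.5 CPM and Fcrls at 558 and 170 CPM. Of 9 genes 7 were lower beyond counting error, beside 10.6% of genes tested in the same nuclei, the exceptions being Tmem119 at 16.4 and 5.00 CPM and P2ry13 at 8.49 and 7.51 CPM. At 21 dpi only 23 nuclei of ADWA11 fell in it, and in them P2ry12 had 0 UMIs, Cx3cr1 6 and Fcrls 1. P2ry12, Sall1, Cx3cr1, Gpr34 and Fcrls were lower beyond counting error, beside 7.15% of genes tested. The other 4 genes could not be told from Ctrl at this depth. In border macrophage-like sub-cluster 0 of the same library P2ry12 and Fcrls were higher, at 80.6 and 33.8 CPM against 0 and 9.21 CPM. Sall1, Cx3cr1 and Gpr34 were lower there, at 0.724, 20.2 and 11.5 CPM against 18.4, 55.3 and 18.4 CPM. Whether the 23 are microglia with less of the genes or nuclei of another kind was not tested.

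Lower levels were found in other sub-clusters too, in a number of genes that differed between them. Sub-cluster 3 was unnamed, led by Dach1, Ednra and Slc36a2, and held 1601 nuclei of Ctrl and 728 of ADWA11 at 7 dpi. In it Fcrls was at 345 and 48.0 CPM, Cx3cr1 at 169 and 31.9 CPM and P2ry12 at 160 and 53.7 CPM, and 9 of 9 genes were lower beyond counting error, beside 20.1% of genes tested in it. Of the 9, 5 lay above the fibroblasts of the same Ctrl library with intervals that did not overlap, while Sall1, at 5.86 CPM, lay below them, at 14.8 CPM, and Tmem119, Siglech and Olfml3 overlapped them. At 21 dpi 5 of 9 were lower, beside 11.5%, and 4 of these lay above fibroblasts in Ctrl. In the proliferating sub-cluster 5, with 342 and 827 nuclei at 7 dpi, Cx3cr1 was at 250 and 69.1 CPM and Sall1 at 55.0 and 18.0 CPM, and 8 of 9 genes were lower, beside 18.4%, with 4 lower at 21 dpi beside 7.87%. In the border macrophage-like sub-cluster 0, Fcrls was at 434 and 119 CPM at 7 dpi and at 219 and 33.8 CPM at 21 dpi, and P2ry12 at 225 and 129 CPM and then 191 and 80.6 CPM. Of the 9 genes 4 were lower there at 7 dpi and 8 at 21 dpi, beside 13.3% and 18.3%. Unnamed sub-cluster 2 held the most ADWA11 nuclei at 7 dpi, 2570, beside 70 of Ctrl, and 3 genes, P2ry12, Cx3cr1 and Fcrls, were lower in it at that time, beside 7.89%. Sall1 was at 27.3 CPM in Ctrl and 27.2 CPM in ADWA11 there, and Gpr34, at 49.1 and 74.3 CPM, and Siglech, at 8.18 and 16.9 CPM, did not differ beyond counting error. At 21 dpi 7 of the 9 were lower in it, beside 13.7%. In the lesion macrophage-like sub-cluster 6, 3 genes were lower at 7 dpi and 6 at 21 dpi, beside 8.8% and 10.6%. The 3 at 7 dpi were Cx3cr1, Fcrls and Tmem119, and Tmem119, at 5.81 CPM in Ctrl and 0 CPM in ADWA11, had too few UMIs for a ratio. In the dendritic sub-cluster 8, with 169 nuclei of Ctrl and 136 of ADWA11 at 7 dpi, 5 genes were lower, beside 9.67%. At 21 dpi 2 were, P2ry12 and Cx3cr1, beside 8.75%, while Fcrls was at 43.3 and 48.5 CPM, a log2 ratio of 0.16 (-0.71 to 1.15). In dendritic sub-cluster 10, with 22 to 75 nuclei a library, 2 genes were lower at each time, beside 4.82% and 4.29%. Fibroblasts, read here as a background that can hold free RNA, had less Fcrls under ADWA11 too, at 51.3 and 14.4 CPM at 7 dpi. Of the genes lower in sub-clusters 5, 0, 2 and 6, the number that lay above fibroblasts in Ctrl was 6, 3, 3 and 2 at 7 dpi and 3, 6, 6 and 4 at 21 dpi, in sub-cluster 8 it was 3 and then 2, and in sub-cluster 10 it was 1 at each time. Fibroblast nuclei were deeper than myeloid nuclei in every library, so lying above fibroblasts does not set a gene apart from free RNA. The part of free RNA in all these calls was not tested.

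The sub-cluster shares of 1 library were also combined with the sub-cluster levels of the other, a calculation chosen after the values above had been seen. It used only 8 of the sub-clusters at each time, while the observed values beside it are of all myeloid nuclei. With the shares of ADWA11 and the levels of Ctrl, the median log2 ratio of the 9 genes to Ctrl was -0.98 at 7 dpi and -0.34 at 21 dpi. With the shares of Ctrl and the levels of ADWA11 it was -1.87 and -2.201, beside the observed -1.80 and -2.40. Sub-cluster 1 was named from other genes, among them Nav3, Crybb1 and Ecscr, which were lower under ADWA11 as well, so a nucleus with fewer microglia transcripts can fall in another sub-cluster and then counts as a change in share. Shares and levels therefore cannot be told apart by this sum. For Fcrls at 7 dpi the shares alone gave 401 CPM against 419 CPM observed in Ctrl, and the levels alone gave 106 CPM. For Sall1 at 21 dpi shares and levels alone gave 9.01 and 9.43 CPM, against 36.0 CPM in Ctrl and 5.24 CPM in ADWA11. For P2ry13 at 7 dpi the shares alone gave 1.48 CPM and the levels alone 3.98 CPM. The levels of sub-cluster 1 in ADWA11, which this sum weights by its share in Ctrl, rest on 55 and 23 nuclei. The levels of sub-cluster 2 in Ctrl at 7 dpi, which the sum weights by the 2570 nuclei of ADWA11, rest on 70 nuclei, with 0 UMIs of P2ry13.

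**Figure D4:**
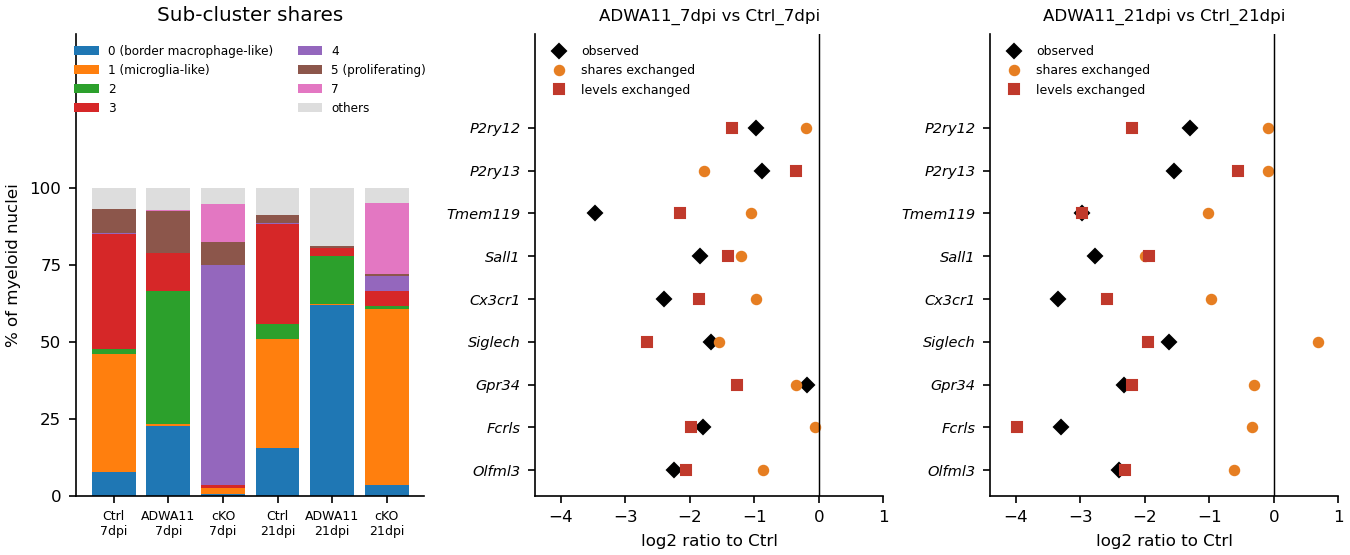
Left, shares of myeloid sub-clusters (% of myeloid nuclei) by library, with names for those that earned 1. Middle and right, log2 ratio of each gene to Ctrl under ADWA11 at 7 and 21 dpi as observed (diamonds), with the sub-cluster shares of ADWA11 and levels of Ctrl (circles), and with the levels of ADWA11 and shares of Ctrl (squares). Sub-cluster 1 shrinks from 38.2% to 0.922% at 7 dpi, and for Fcrls at 7 dpi the circle lies near 0 while the square lies near the diamond.

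In Tgfbr2-cKO the genes stood the other way at 7 dpi. All 9 were above Ctrl beyond counting error, as were 28.1% of genes tested, with 22.2% below, and 4 were at least 2-fold higher, beside 5.74% of genes tested in that direction and 2.77% in the other. Siglech was 4.52-fold, Tmem119 2.87-fold, P2ry13 2.81-fold and Sall1 2.42-fold higher, and Fcrls was 1.07-fold higher. P2ry13 passed the floor of a mean of 5 CPM over the 6 libraries only through its levels in Tgfbr2-cKO. Its place among the 4 is therefore not separate from that filter. The median log2 ratio was 0.90, and it was -0.086 when sub-cluster 4 was left out, an alternative added after seeing the data. Sub-cluster 4 had 10 microglia markers raised and held 1642 of the 2300 myeloid nuclei of this library, against 11 in Ctrl. Leaving it out takes many nuclei with microglia markers from this library and few from Ctrl, so a lower value follows from the choice itself. The 8 neuron markers summed to 585 CPM in the myeloid nuclei of that library, against 99.5 CPM in Ctrl, with 8 of 8 above their Ctrl level; without sub-cluster 4 the sum was 483 CPM, and neurons were 5887 of its nuclei. The part of neuronal RNA and of a dissection rich in brain tissue in these levels was not tested. Astrocyte markers in those nuclei were at 205 CPM against 95.7 CPM in Ctrl, with 5 of 6 above, and at 93.9 CPM without sub-cluster 4. Oligodendrocyte markers were at 168 against 117 CPM, with 4 of 6 above. Fibroblast markers ran the other way in those nuclei, at 45.6 CPM against 593 CPM in Ctrl. Their part was not tested either.

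At 21 dpi 2 of 9 genes were at least 2-fold higher in Tgfbr2-cKO, beside 2.66% of genes tested, and the share of genes at least 2-fold lower was 2.78%. Beyond counting error 6 were higher and 1 lower, beside 28.9% and 23.8%. The 2 genes past 2-fold were Siglech, 2.46-fold, and P2ry13, 2.14-fold. Since P2ry13 passed the floor only through its levels in Tgfbr2-cKO, its place among the 2 is not separate from that filter. P2ry12, Tmem119, Sall1 and Cx3cr1 were 1.61-fold, 1.87-fold, 1.69-fold and 1.28-fold higher. Fcrls was 1.13-fold lower, and Gpr34 and Olfml3 did not differ beyond counting error, with log2 ratios of 0.10 (-0.03 to 0.24) and -0.01 (-0.23 to 0.21). Within microglia-like sub-cluster 1, which held similar numbers of both libraries, Siglech was at 28.0 CPM in Ctrl and 73.8 CPM in Tgfbr2-cKO and P2ry12 at 244 and 321 CPM, while Cx3cr1 was at 333 and 321 CPM. Fcrls was lower there in Tgfbr2-cKO, at 326 and 259 CPM, a log2 ratio of -0.33 (-0.42 to -0.24). In the myeloid nuclei of this library the neuron markers summed to 198 CPM against 43.6 CPM in Ctrl, with 8 of 8 above Ctrl, and the oligodendrocyte markers to 236 against 117 CPM, with 6 of 6 above. Astrocyte markers were at 242 and 143 CPM, with 3 of 6 above, and fibroblast markers at 58.2 and 938 CPM, with 8 of 8 below. Their part in these levels was not tested.

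The mice of a library could be told apart by sex-linked transcripts, which gave 1 value each. Under ADWA11 all 9 genes were lower than in Ctrl in the female and in the male nuclei at both times. The share of all genes lower in the nuclei of each sex is not given here. In all myeloid nuclei 32.5% of genes tested were lower beyond counting error at 7 dpi and 37.2% at 21 dpi. These shares are not of the nuclei of 1 sex and leave out genes lower within counting error, so they are no like measure for the 9 genes. The median log2 ratio over all genes tested was 0.02 and -0.07 in all myeloid nuclei. Cx3cr1 was at 263 and 41.5 CPM in the female mice of Ctrl and ADWA11 at 7 dpi and at 272 and 57.2 CPM in the males, and at 21 dpi at 207 and 27.1 CPM and at 212 and 18.1 CPM. Microglia-like nuclei were 35.7% and 39.7% of the female and male myeloid nuclei of Ctrl at 7 dpi and 0.690% and 1.15% in ADWA11. At 21 dpi they were 34.2% and 42.02% in Ctrl and 0.673% and 0.278% in ADWA11.

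In Tgfbr2-cKO at 21 dpi the mice disagreed. Cx3cr1 was at 136 CPM in the female and 409 CPM in the male mouse, Fcrls at 92.3 and 387 CPM and Olfml3 at 16.5 and 34.9 CPM. P2ry12, at 295 and 283 CPM, and Tmem119, at 20.3 and 14.3 CPM, did not show this gap. The share of microglia-like nuclei was 56.1% and 60.8%, and within that sub-cluster Cx3cr1 was still at 178 and 448 CPM and Fcrls at 106 and 401 CPM. Sex cannot be told apart from the single mouse that stands for it.

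**Figure D5:**
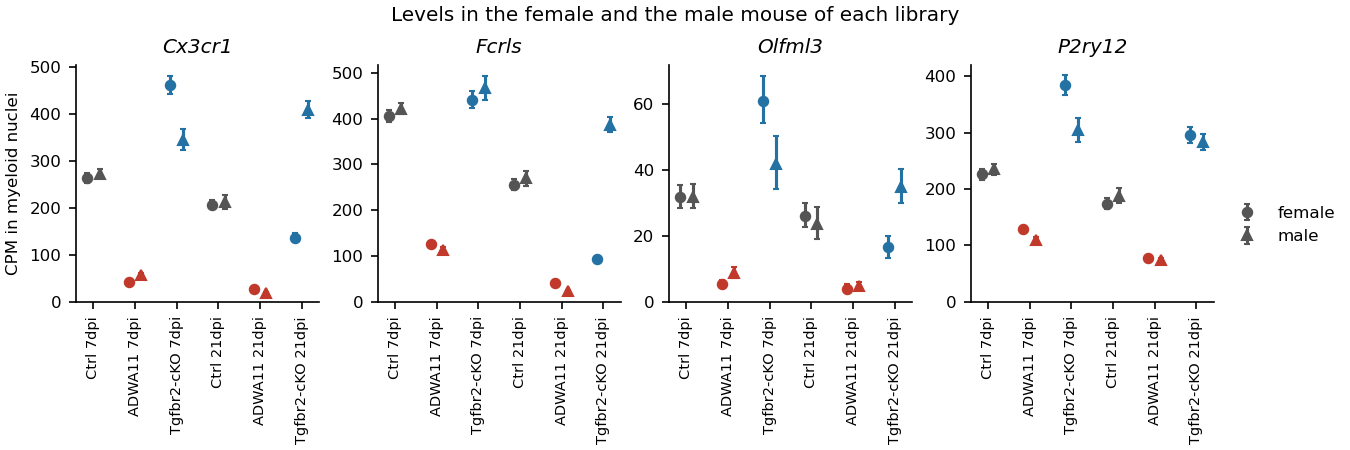
CPM in myeloid nuclei of the female (circles) and male (triangles) mouse of each library for Cx3cr1, Fcrls, Olfml3 and P2ry12, with exact 95% Poisson intervals for counting error. Both mice of ADWA11 lie below both mice of Ctrl at each time, and the mice of Tgfbr2-cKO at 21 dpi lie apart for Cx3cr1, at 136 and 409 CPM, and close for P2ry12.

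Other genes of the same biology were read from lists chosen by their known roles, with earlier results of these data known. Their counts beside all genes are therefore descriptions. Of 31 further microglia genes 29 passed the floor of 5 CPM on average, and under ADWA11 12 were at least 2-fold lower and 0 higher at 7 dpi, and 15 lower and 0 higher at 21 dpi, beside 3.64% and 7.59% of all genes tested that were at least 2-fold lower at these times and 3.16% and 2.46% that were higher. Their median log2 ratios were -0.77 and -1.02. Crybb1 was at 4.36 CPM in Ctrl and 0.201 CPM in ADWA11 at 7 dpi, Nav3 at 636 and 54.3 CPM and Ecscr at 12.7 and 1.43 CPM. At 21 dpi Nav3 was at 312 and 4.89 CPM. Beyond counting error 4 of the 29 were higher at 7 dpi and 5 at 21 dpi, beside 35.8% and 22.7% of genes tested. Entpd1, which degrades extracellular ATP, was at 342 and 423 CPM at 7 dpi and at 456 and 733 CPM at 21 dpi, and Mertk, an engulfment receptor, was at 1840 and 2517 CPM at 21 dpi. Pros1, at 222 and 350 CPM, and C1qc, at 124 and 168 CPM, were higher under ADWA11 at 7 dpi. In Tgfbr2-cKO 8 of the 29 were at least 2-fold higher and 0 lower at 7 dpi, and 4 higher and 1 lower at 21 dpi, beside 5.74% and 2.66% of all genes higher. The lower one was Sparc, a matrix protein, at 130 and 38.9 CPM. Nav3, Crybb1, Ecscr, Sparc and Sall3 were also among the markers that named sub-cluster 1.

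The TGFβ pathway list held 13 genes above the floor of 14 listed. Under ADWA11 4 were at least 2-fold lower and 0 higher at each time, beside 3.64% of all genes lower at 7 dpi and 7.59% at 21 dpi. Smad7 and Skil, feedback inhibitors that TGFβ induces, were at 100 and 27.9 CPM and at 176 and 60.0 CPM in Ctrl and ADWA11 at 7 dpi, and at 70.3 and 10.3 CPM and at 187 and 50.6 CPM at 21 dpi. Tgfbr1, the type I receptor and itself a gene high in microglia, was at 1099 and 514 CPM and at 1202 and 399 CPM. Tgfb1 was at 139 and 157 CPM at 7 dpi and Nrros, which holds latent TGFβ on microglia, at 169 and 222 CPM. In Tgfbr2-cKO 0 of the 13 passed 2-fold in either direction at either time. Over all genes 2.77% were lower and 5.74% higher by that rule at 7 dpi, and 2.78% and 2.66% at 21 dpi. The 0 of 13 is near that background. Beyond counting error 6 were lower and 5 higher at 7 dpi, beside 22.2% and 28.1% of genes tested. At 21 dpi 8 were lower and 1 higher, beside 23.8% and 28.9%. Smad7, 1 of those higher at 7 dpi, was at 154 CPM, a log2 ratio of 0.62 (0.52 to 0.71).

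Of 10 microglial transcription factors outside the set, 1 was at least 2-fold lower under ADWA11 at 7 dpi and 4 at 21 dpi, with 0 higher. Over all genes the lower shares were 3.64% and 7.59%, so the single gene at 7 dpi is near that background. Sall3, a relative of Sall1, was at 38.3 and 14.3 CPM and then at 31.0 and 2.34 CPM, and Tal1 at 35.3 and 19.0 CPM and then 35.8 and 7.79 CPM. Mef2c was at 1030 and 389 CPM at 21 dpi. Spi1, which encodes PU.1, was at 146 and 160 CPM and then 176 and 205 CPM, Irf8 at 277 and 308 CPM at 21 dpi, and Maf at 384 and 553 CPM and then 384 and 409 CPM.

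Disease-associated microglia genes went both ways under ADWA11. Of 19 measured 7 were lower and 10 higher beyond counting error at 7 dpi, and 8 lower and 9 higher at 21 dpi, with median log2 ratios of 0.07 and 0.04. Over all genes tested 32.5% were lower and 35.8% higher by that rule at 7 dpi, and 37.2% and 22.7% at 21 dpi. At least 2-fold lower were 2 at 7 dpi and 5 at 21 dpi, beside 3.64% and 7.59% of all genes, and 2 and then 1 were 2-fold higher, beside 3.16% and 2.46%. Cst7, a cystatin, was at 6.85 and 0.694 CPM and then 5.21 and 0.615 CPM, and Spp1, osteopontin, at 674 and 141 CPM at 21 dpi. Ccl6 was at 6.38 and 58.7 CPM and then 29.6 and 196 CPM, and Lpl, lipoprotein lipase, at 228 and 966 CPM at 7 dpi. Of 9 border macrophage genes above the floor 8 were higher and 1 lower beyond counting error at 7 dpi, and 4 higher and 3 lower at 21 dpi, with medians of 0.87 and 0.093. At least 2-fold higher were 3 at 7 dpi and 2 at 21 dpi, with 0 lower. Mrc1, the mannose receptor, was at 265 and 1006 CPM and then 403 and 974 CPM, F13a1 at 524 and 1098 CPM and Cd163 at 9.77 and 21.3 CPM at 7 dpi. Of 6 monocyte-derived cell genes above the floor, 1, Arg1, was at least 2-fold lower at 7 dpi, at 20.7 and 9.42 CPM, and 0 moved 2-fold at 21 dpi.

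In Tgfbr2-cKO at 7 dpi 4 of the 6 monocyte-derived genes were at least 2-fold lower, beside 2.77% of all genes, among them Vcan at 27.5 CPM in Ctrl and 11.1 CPM and Clec4e at 5.41 and 1.81 CPM, and Ms4a7 of border macrophages was at 514 and 198 CPM. Of the 9 border macrophage genes 4 were lower and 1 higher beyond counting error at 7 dpi, beside 22.2% and 28.1% of genes tested, and their median was -0.39 on the log2 scale. At 21 dpi 2 were lower and 5 higher, with a median of 0.40, beside 23.8% and 28.9%. Folr2, the 1 at least 2-fold lower, was at 9.79 and 4.65 CPM, and Mrc1 was at 403 and 578 CPM. Arg1, at 3.05 and 7.21 CPM, was the 1 monocyte-derived gene at least 2-fold higher at 21 dpi. Over all genes 2.78% were at least 2-fold lower and 2.66% higher at that time. Of the 19 disease-associated genes 7 were lower and 9 higher beyond counting error at 7 dpi, and 14 lower and 2 higher at 21 dpi, when Lpl was at 546 and 218 CPM and Itgax at 85.4 and 38.4 CPM. Sall3 was 87.2 CPM at 7 dpi, against 38.3 CPM in Ctrl.

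The 5 genes whose level over the 6 libraries most resembled the mean of the 9 genes were Mgat4a, Cfap74, St3gal6, Pag1 and Etv4, with Pearson's r of log2(CPM + 1) from 0.996 to 0.999, a description over 6 libraries among 10997 genes. Mgat4a was at 158, 74.6 and 248 CPM at 7 dpi and at 142, 45.4 and 180 CPM at 21 dpi in Ctrl, ADWA11 and Tgfbr2-cKO. St3gal6 was at 90.7, 29.5 and 159 CPM and then 64.1, 17.5 and 99.6 CPM. Within libraries, nuclei with 3 or more of the 9 genes were compared with nuclei that had none, over 161 to 1829 and 274 to 3937 nuclei a library. The 10 genes with the highest lowest-library ratio were Ccdc192, Tln2, Gm10790, Gm50035, Gm2629, Capn3, St3gal6, Hpgd, Abca9 and 2610203C22Rik. Capn3, a calpain, was at 75.0 CPM with the programme and 11.4 CPM without it in Ctrl at 7 dpi and at 44.9 and 12.2 CPM in ADWA11. Nuclei with more UMIs detect more genes, and these classes were not thinned. Hpgd and Abca9 were higher in the programme nuclei of ADWA11, at 288 and 276 CPM at 7 dpi, than in those of Ctrl, at 65.6 and 159 CPM, and Hpgd was among the leading genes of unnamed sub-cluster 2, which held 2570 ADWA11 nuclei and 70 of Ctrl at 7 dpi.

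Some of the 9 genes were also read in other classes. Olfml3 and Tmem119 were in fibroblasts at 28.9 and 13.8 CPM in Ctrl at 7 dpi, and in ADWA11 at 21 dpi, at 18.8 and 14.5 CPM, they were above their level in myeloid nuclei of that library, 4.80 and 1.26 CPM. Sall1 in astrocytes was at 22.2 CPM (14.4 to 32.8) in Ctrl, 26.1 CPM (19.9 to 33.7) in ADWA11 and 40.3 CPM (32.4 to 49.5) in Tgfbr2-cKO at 7 dpi. At 21 dpi it was at 25.9 CPM (22.2 to 30.1), 20.1 CPM (14.9 to 26.4) and 34.1 CPM (29.98 to 38.6), which is the order of the myeloid levels, with overlapping intervals of Ctrl and ADWA11. P2ry12 in the 12 to 159 neutrophils a library was at 382, 242 and 87.3 CPM at 7 dpi and 350, 214 and 276 CPM at 21 dpi, from 2 to 89 UMIs. Cx3cr1 in fibroblasts, which should lack it, was at 28.6, 9.51 and 31.5 CPM at 7 dpi and at 23.0, 9.59 and 18.4 CPM at 21 dpi. At 21 dpi the level in ADWA11 myeloid nuclei, 20.9 CPM, was still above the fibroblasts of the same library.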

How the data were processed

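Nuclei sorted by DAPI were profiled on the Chromium 3′ v3.1 droplet platform. The authors aligned reads to mm10 with Cell Ranger and deposited raw counts of UMIs per gene and barcode for 6 libraries; the file headers name version 7.2.0 and the processing notes 7.1.0. Whether intronic reads and strand were used in counting is not given in the sources used here.

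From those counts, barcodes in the lowest and highest 2.5% of UMIs or genes, or the highest 2.5% of mitochondrial share, were removed per library. Doublets were scored with scanpy 1.11.5, and called doublets were kept (5141 nuclei) and left out as an alternative. Nuclei were clustered with sctransform 0.4.2 and Seurat 5.3.0 without the 9 genes among the variable genes, and named from markers. The class also holds small B and plasma cell-like sub-clusters 11 and 12, of 95 and 55 nuclei. Levels were CPM of the non-mitochondrial UMIs of a class. Intervals were exact (Poisson, Clopper-Pearson, or conditional binomial for a ratio) at 95%, and a count of 0 was bounded by 3 counts. The range given with a median over the genes pairs the medians of their interval ends and is not exact. With 1 library per group no test was run, and 2-fold was the size rule; genes under a mean of 5 CPM were not counted. Scripts were tested on simulated data. TMM factors came from edgeR 4.0.16. Named genes were the 9 genes, up to 3 with the largest rise and fall per list and comparison, and the genes most like the set. Members and lists were chosen with earlier results of these data known.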

Additional observations from a re-analysis of the deposited data

Results flagged for a closer look

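In Tgfbr2-cKO at 21 dpi the female and the male mouse lay on opposite sides of Ctrl for 3 genes, each mouse against the same sex of Ctrl. The log2 ratio of Cx3cr1 was -0.61 in female and 0.95 in male nuclei, that of Fcrls -1.47 and 0.52, and that of Olfml3 -0.67 and 0.56. Fcrls was also above Ctrl at 7 dpi, with a log2 ratio of 0.10, and below it at 21 dpi, with -0.17. None of these differences was itself tested, since each value comes from 1 mouse or 1 library.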

How the results depend on the processing

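No paired analysis was possible because each group holds 1 library and the results come from no test. Of the alternative values 116 stayed within counting error of the main value or within 1.5 times the main count, 45 moved and 3 reversed. No alternative turned the direction under ADWA11. Values are log2 ratios to Ctrl of the median of the 9 genes, of the share of nuclei with 3 or more, and of the level in programme nuclei. The 3 reversals came from leaving out sub-cluster 4 in Tgfbr2-cKO at 7 dpi, chosen after seeing the data: the median was -0.086, the share -0.25 and the programme level -0.055. That choice takes out nuclei with microglia markers raised in Tgfbr2-cKO and leaves sub-cluster 1 in Ctrl. Lower values therefore follow from the choice itself. Under ADWA11 at 7 and 21 dpi the share, -3.18 and -4.18, was -1.29 and -3.34 not thinned, -4.13 and -4.96 at 1000 UMIs, and -1.76 and -3.13 for 2 or more genes; it was -2.14 at 4000 UMIs at 7 dpi and -3.71 in female nuclei at 21 dpi. The median was -1.69 in female nuclei at 7 dpi and -2.75 with log-normalised clustering and -2.78 without sub-cluster 13 at 21 dpi, and the programme level at 21 dpi was -2.31 with at least 1 of the other 8 genes and -1.71, with an interval of -4.10 to 0.077, with at least 3. The programme level at 21 dpi was -1.24 as reported and -1.83 without sub-cluster 13, which held none of the 205 nuclei picked for Siglech in ADWA11. Siglech was then at -0.41 in place of 0.11. The thinning was drawn anew for this alternative, and its part in the change was not tested. In Tgfbr2-cKO at 7 dpi the share, 1.01, was 0.34 not thinned, 1.33 at 1000 and 0.50 at 4000 UMIs, 0.50 for 2 or more genes, 1.20 and 0.60 in female and male nuclei, and 0.84 with log-normalised clustering, and the median reached 1.08 with 1 gene left out. At 21 dpi the share, 0.70, was 1.07 at 1000 and 0.34 at 4000 UMIs, 0.23 for 2 or more genes, and 0.089 and 1.13 in female and male nuclei; the median, 0.68, was 0.40 and 0.89 in them, 0.52 with 1 gene left out, 0.56 and 0.57 with marker gates with and without percentile filters, and 0.80 as a mean over nuclei; the programme level was 0.20 (-0.079 to 0.62) with at least 3 of the other 8 genes and 0.42 (-0.52 to 0.97) in female nuclei. The percent of all genes 2-fold lower and higher, with no floor, was 7.99 and 9.84 under ADWA11 at 7 dpi, 12.4 and 6.87 at 21 dpi, 6.5 and 15.3 in the Tgfbr2-cKO library of 7 dpi, and 8.27 and 9.48 in that of 21 dpi. With a floor of 20 CPM it was 2.01 higher under ADWA11 at 7 dpi, and, for Tgfbr2-cKO, 1.71 and 2.54 at the earlier and 1.23 and 1.17 at the later time. Depth limited P2ry13 and Tmem119 most, and the spread between mice was seen only between 1 female and 1 male mouse a library, where it cannot be told apart from sex.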
